A study of Danio rerio with 15 samples.

Results

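The comparison described here is that of zebrafish larvae given TCPMOH with larvae given the solvent alone, across all genes whose mean normalised read count over the libraries of the fit, called the base mean, was at least 10. Of 36351 genes in the authors' deposited table, 22819 met that level. The larvae were Danio rerio of the wild-type AB strain, kept in water with 0.01% DMSO by volume or with 50 nM TCPMOH from 24 to 100 hours after fertilization and collected whole at 100 hours in pools of 8 to 10. Another group was given 50 nM TCPM over the same hours. The labels list 5 samples per group and state 3 experimental replicates, with embryos taken from 20 breeding pairs, and RNA was read by stranded mRNA sequencing. TCPMOH, tris(4-chlorophenyl)methanol, carries a hydroxyl group on its central carbon where TCPM, tris(4-chlorophenyl)methane, carries a hydrogen. Both are persistent organochlorine contaminants found in wildlife.

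Several of the genes described below belong to systems that are tied together in fish. Most zebrafish tissues hold a circadian clock that light sets directly, and light induces both clock repressor genes such as per2 and photolyases, which use light to mend ultraviolet damage in DNA. Immediate early genes are transcribed within minutes of a stimulus, in neurons after electrical activity and in other cells after growth factors or handling. In the eye, the retinal pigment epithelium makes melanin and regenerates the retinal that photoreceptors use to detect light.

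The authors' deposited table gives 1 row of summary values per gene and no value per library, so no level of a single pool and no SD over pools can be shown. Genes that had 1 read in all showed that 8 libraries entered the fit, 4 per group, with an estimated 18.1 to 25.7 M assigned reads each. The sample of each group that did not enter is not named in the sources used here. The same genes settled the direction: all 654 lone-read genes of the 4 libraries shared with the TCPM table had a positive deposited fold change, and 0 of 526 in the other 4 did, so the table gives DMSO over TCPMOH and all signs were turned. Group means below are normalised read counts derived from the base mean and the fold change before the authors' shrinkage, and folds carry 95% normal intervals. Of 45 marker genes of 22 tissues, none was at 0 (DMSO means 44.1 to 141080), and 5 were called, with fabp2 of the intestine, rpe65a of the pigment epithelium and pmela and dct of melanocytes higher and the cone opsin opn1mw1 lower. Of all genes tested, 2.55% were called.

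Larvae given TCPMOH had more transcript of some light-induced clock and DNA repair genes, of some melanin and visual cycle genes, and of a number of chaperone, efflux and drug-metabolising enzyme genes. They had less transcript of many immediate early genes, of some genes that license DNA replication and of several cone photoreceptor genes. Most changes were small. An adjusted p under 0.05 by the DESeq2 Wald test of the authors' deposited table was reached by 547 of 21491 genes tested (2.55%), of which 332 were higher (1.54%) and 215 lower (1.00%), and 2080 genes had an unadjusted p under 0.05. Of the called genes 60.7% were higher. With fold changes centred on the cytosolic ribosomal protein genes, whose median was -0.03 in log2, 461 genes were higher and 170 lower, or 73.1% higher. The other 1328 genes had no adjusted p, since the authors' filter removed means under 18.4. A fold before shrinkage could be recovered for 516 of the 547 called genes, and for the other 31 the deposited log2 fold change is given instead. The median size of these 516 changes was 1.40-fold. At least 2-fold changes numbered 27 upward and 21 downward, and 329 genes changed by less than 1.5-fold, the smallest called changes being 1.14-fold upward and 1.16-fold downward. The median log2 fold change of all genes tested was -0.002.

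**Figure D1:**
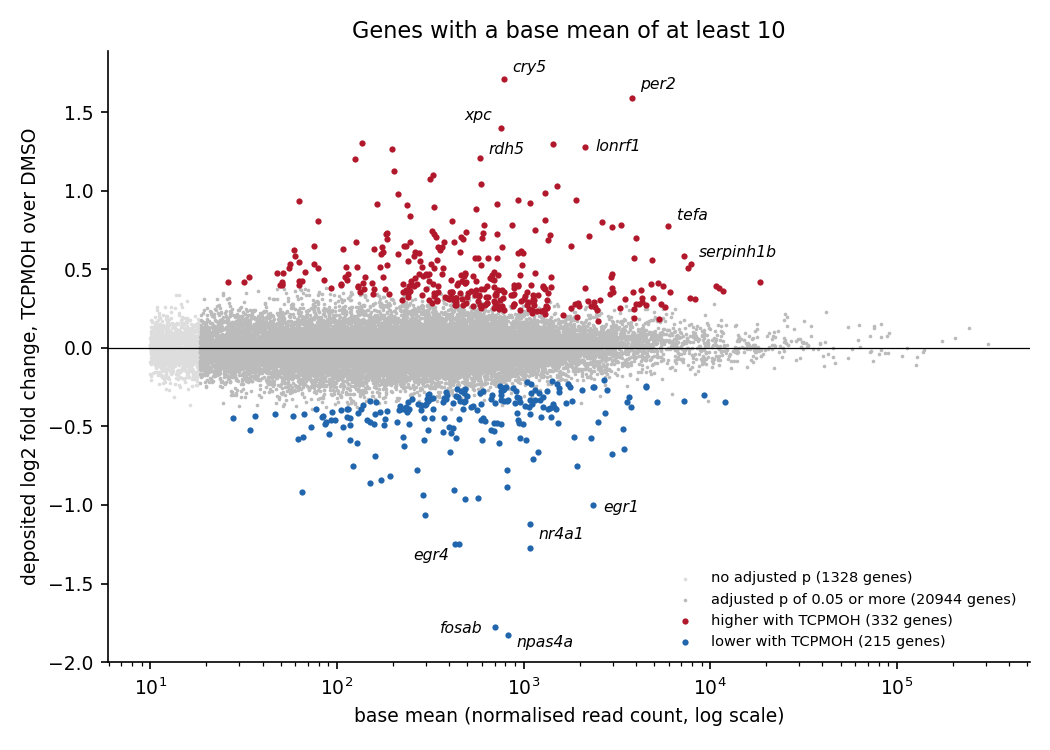
Each point is a gene with a base mean of at least 10, by base mean (log axis) and deposited log2 fold change of TCPMOH over DMSO, with the 332 genes called higher in red and the 215 called lower in blue. The called genes run from -1.83 for npas4a to 1.71 for cry5, while the grey cloud of genes that were not called stays centred on 0.

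The largest rise on the deposited scale was that of cry5, which encodes the photolyase for 6-4 photoproducts. Its mean was 327 with DMSO and 1248 with TCPMOH, 3.81-fold higher (95% interval 3.38 to 4.30), and its adjusted p in the authors' table, as deposited, was 5e-102. Next came per2 and xpc. Also among the 15 largest rises were wdr76, which encodes a WD-repeat protein, at 3.24-fold, prxl2b, which encodes a peroxiredoxin-like prostaglandin F synthase, at 2.29-fold, and 4 genes known by clone names, of which si:ch211-161h7.5 rose 3.63-fold from 623 to 2260.3 and si:dkey-104n9.1 rose 3.41-fold. At the other end, npas4a, a transcription factor gene of active neurons, had a mean of 1418 with DMSO and 228 with TCPMOH, 6.23-fold lower (95% interval 4.98 to 7.80). The early gene fosab fell 6.21-fold, from 1204 to 194 (95% interval 4.91 to 7.84). These falls were larger than the rise of cry5, with intervals that do not overlap its own, and no other called gene with a recovered fold fell more than 3.48-fold. Outside the gene lists, si:dkey-242g16.2, named ppp1r3c2a in RefSeq and so a regulatory subunit gene of a glycogen-associated phosphatase, fell 2.92-fold and gpr186, named gpr3 in RefSeq, which encodes a G protein-coupled receptor, fell 2.46-fold. The gene dhrs13a.2, of a dehydrogenase and reductase family, fell 2.30-fold.

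Genes were grouped into 61 lists by role or tissue, which together held 2665 of the genes. Called genes fell in at least 1 list in 191 cases and in none in 356. In 15 lists no gene was called. Each list count below stands beside 1.54% higher and 1.00% lower over all genes tested. The lists were drawn up with earlier results of these data known, so their counts describe the response and are not independent evidence of its direction.

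**Figure D2:**
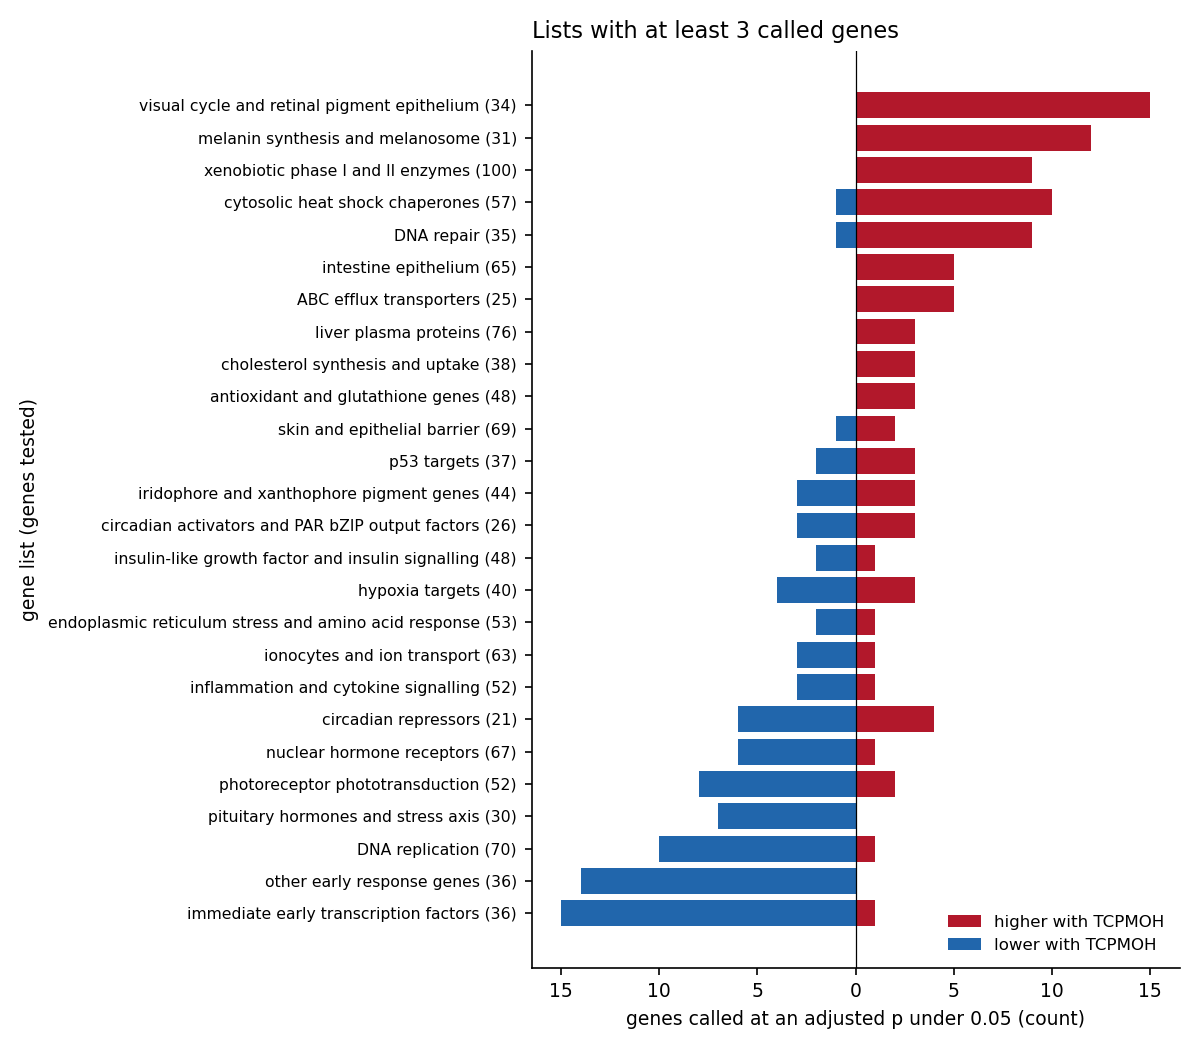
Bars count the called genes in each list with at least 3 of them, higher with TCPMOH to the right in red and lower to the left in blue, with the number of genes tested in brackets. The visual cycle and melanin lists hold 15 and 12 higher and 0 lower, and the immediate early list 1 higher and 15 lower.

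Among DNA repair genes are several that light or ultraviolet damage induces in fish. Of 35 genes tested in the DNA repair list, 9 rose and 1 fell, against 1.54% and 1.00% of all genes tested, while the median of the list on the log2 scale was 0.05. Beside cry5, the other photolyase genes rose: cry-dash, of the cryptochrome DASH group, went from 717 to 1462, 2.04-fold, and zgc:66475, the photolyase gene cpdp of RefSeq, from 349 to 605, 1.73-fold. The damage sensors of nucleotide excision repair moved the same way, xpc from 385 to 1139.5 (2.96-fold, 95% interval 2.63 to 3.33) and ddb2 from 460.5 to 984 (2.14-fold, 95% interval 1.84 to 2.48). The transcription-coupled repair gene ercc6 rose 1.88-fold and the base excision glycosylase gene neil1 1.73-fold. The 9 also count lonrf1 and lonrf1l, which rose 2.79-fold and 2.03-fold. These encode RING finger proteins with a LON domain and belong to none of the repair pathways above. The mismatch repair gene msh6 was the exception, 1.30-fold lower. Most of the list did not pass the test: ddb1, the partner of ddb2, had means of 1799 and 1853, and rad23b, the partner of xpc, 1979 in both groups. Of 37 genes tested in the p53 target list, 3 rose (8.11%) and 2 fell (5.41%), against 1.54% and 1.00% of all genes tested. The rises were xpc, ddb2 and rrm2b, a ribonucleotide reductase subunit gene, at 1.37-fold, and the falls were the cell cycle inhibitor gene cdkn1a at 1.61-fold and the antiproliferative gene btg2, which went from 1614 to 553, 2.92-fold.

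Clock genes were called in both directions. In the list of circadian repressors 4 of 21 genes tested rose and 6 fell. The risers were per2 and 3 cryptochromes, all repressors of the Clock and Bmal dimer. The mean of per2 was 1639 with DMSO and 5972 with TCPMOH, a 3.64-fold rise (95% interval 3.17 to 4.19) and the authors' deposited table gives it an adjusted p of 8.27e-70. cry1bb rose 2.68-fold from 110.3 to 296, cry1ba 1.56-fold from 3803 to 5913, and cry1aa 1.39-fold from 2465 to 3435. Rev-erb genes, which repress transcription of the Bmal genes, were among those that fell. nr1d4b went from 173 to 70.5 (2.45-fold lower, 95% interval 1.84 to 3.26), nr1d2a from 3731 to 2227 (1.68-fold) and nr1d1 from 4277 to 3229 (1.32-fold). Their relative nr1d2b, with a deposited log2 fold change of -0.07 in the authors' deposited table, did not pass. The other period genes did not follow per2. per1a fell 1.56-fold and per1b 1.22-fold, the latter with 0.0496 as its adjusted p from the authors' deposited table, and per3 had means of 5056 and 5833 without passing the test. The sixth to fall was cipca, a gene of a Clock-binding inhibitor, at 1.36-fold.

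In the list of clock activators and PAR bZIP output factors 3 of 26 rose and 3 fell. Of the activator genes, npas2, a paralog of Clock, rose from 181 to 477, 2.63-fold (95% interval 2.21 to 3.14), whereas clocka had means of 175 and 177 and arntl1a, a Bmal gene, 253 and 239, neither passing the test. The PAR bZIP factors, which carry the clock's rhythm to output genes, divided. tefa rose from 4323 to 7621, 1.76-fold, while dbpb fell 1.53-fold, hlfb 1.34-fold and dbpa 1.21-fold, and tefb, with means of 5995 and 5104, did not pass. Their antagonist nfil3-6 rose, with a deposited log2 fold change of 0.37 in the authors' deposited table. All larvae were collected at the same age per the labels, and the sources used here do not state the clock time of collection.

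Early response genes were lower across several families. Of 36 genes tested in the list of immediate early transcription factors 15 fell and 1 rose, against 1.00% and 1.54% of all genes tested, and the median deposited log2 fold change was -0.30. In the Fos and Jun families, whose products form the AP-1 factor, fosab fell most, and fosb fell 2.38-fold from 212 to 88.9, junbb 1.97-fold from 1086 to 553 and fosaa 1.66-fold from 508 to 305. The zinc finger genes of the Egr family followed. egr4 fell 3.48-fold from 663 to 191, egr1 fell 2.23-fold from 3257 to 1458 (95% interval 1.95 to 2.55), and egr2a fell with a deposited log2 fold change of -0.44 in the authors' deposited table. The orphan receptor gene nr4a1 fell 2.34-fold from 1512 to 647, and ier2a and ier2b fell 2.38-fold and 2.84-fold. CR388166.1, npas4b in RefSeq, fell 2.04-fold beside its relative npas4a. jun, with means of 1957 and 1852, did not pass, and maff, a small Maf factor gene, rose 1.20-fold.

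Of 36 other early response genes, 14 fell and 0 rose. They include feedback inhibitors of kinase signalling, among them the phosphatase genes dusp1, at 1.76-fold from 1437 to 815, dusp5 at 1.75-fold, dusp2 at 1.41-fold and dusp6 at 1.22-fold. cyr61, also called ccn1, a matricellular protein gene and a target of the Yap coactivator, fell 1.98-fold from 1090.3 to 551. The salt-inducible kinase gene sik1 fell 1.83-fold. By contrast btg1 and zfp36l1a had means of 5356 and 5859.6 and of 2968 and 2956 and did not pass. Among genes named after their values were seen, the precursor gene of the activity-induced microRNA mir132-1 fell with a log2 fold change of -0.52 in the authors' deposited table, and srfa, a serum response factor gene, fell 1.36-fold. RNA quality per library is not in the table. Of 12 mitochondrially encoded transcripts 0 were called, 1 was higher and 0 lower with an unadjusted p below 0.05, and all 12 had fold changes above 0, with a median deposited log2 of 0.13. Their part in the early gene result was not tested. The most abundant, mt-co1, had means of 230255 and 255632.

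**Figure D3:**
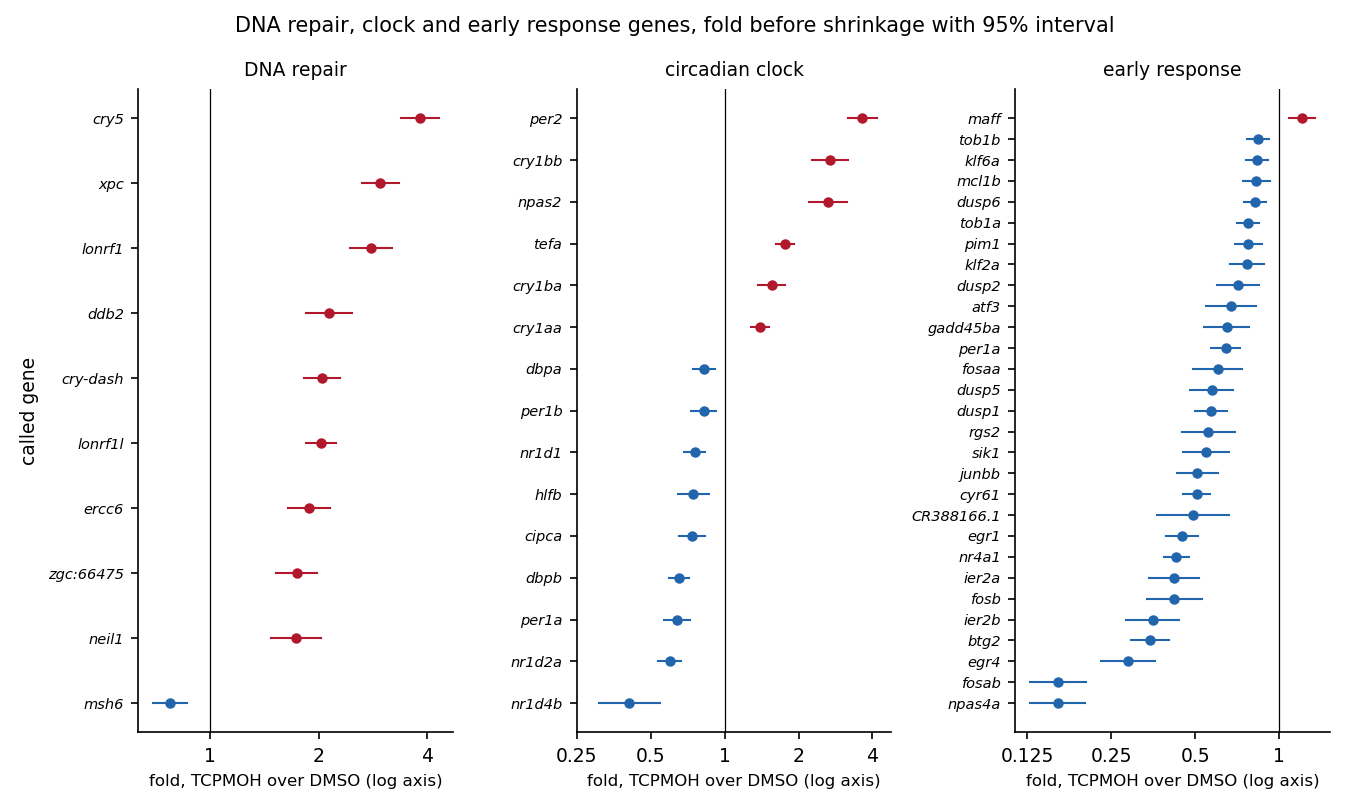
Points are folds of TCPMOH over DMSO before shrinkage with 95% normal intervals (log axes), for called genes of the DNA repair list, the clock lists and the early response lists, red where higher and blue where lower. All but 1 of the early response genes shown lie below 1, down to npas4a and fosab, while the clock genes fall on both sides, with per2 at 3.64.

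Several of the genes that fell are also targets of the glucocorticoid receptor or genes of the stress axis. They stood in a list that also holds pituitary hormone genes. Of its 30 genes tested 7 fell and 0 rose, against 1.00% and 1.54% of all genes tested. fkbp5, a co-chaperone of that receptor and among its best known targets, went from 4382 to 2548, 1.72-fold lower (95% interval 1.47 to 2.01). ddit4, an inhibitor of growth signalling, fell 1.53-fold, igfbp1a, an insulin-like growth factor binding protein gene, 1.51-fold, and hsd11b2, of the enzyme that inactivates cortisol, 1.34-fold. klf9, a transcription factor gene that glucocorticoids induce, fell 1.37-fold from 1279.7 to 937. dusp1 and per1a, counted above, are the other members that fell. pck1, a gluconeogenesis gene that glucocorticoids induce, had means of 6927 and 6974 and did not pass.

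Of genes of the visual cycle and the retinal pigment epithelium 15 of 34 tested rose and 0 fell, with a median deposited log2 fold change of 0.18. In a whole-larva extract more cells of a type and more RNA per cell cannot be told apart, here and for the pigment and photoreceptor genes below. The enzyme gene with the largest rise was rdh5, whose product oxidises 11-cis-retinol: its mean was 277 with DMSO and 888 with TCPMOH, 3.21-fold higher (95% interval 2.60 to 3.97). lratb.2, of the retinol-esterifying family, rose 2.46-fold from 137 to 337. rpe65a, the isomerase of the cycle and the marker of this epithelium, had a log2 fold change of 0.71 in the authors' deposited table, at an adjusted p of 1.57e-06. Of the retinoid-binding opsins of these cells, rgra rose 1.96-fold from 1771 to 3472 and rgrb 1.65-fold, and rrh rose by 0.58 on the deposited log2 scale of the authors' deposited table. Carriers and uptake genes rose as well, stra6, the retinol uptake receptor, from 518 to 933 (1.80-fold), rlbp1b, a retinaldehyde carrier gene, 1.83-fold, rbp3, the carrier between epithelium and photoreceptors, 1.56-fold from 3066 to 4787, and rbp4l 1.51-fold from 6054 to 9123. The carotene-cleaving genes bco1l, bco1 and bco2a rose 1.75-fold, 1.40-fold and 1.30-fold. rbp4, whose carrier protein the liver secretes, had means of 14770.1 and 15949.5 and did not pass. Among genes outside the list, chosen after their values were seen, slc16a8, a lactate transporter gene of the pigment epithelium, rose 2.45-fold from 95.3 to 234, and cyp27c1, whose enzyme turns vitamin A1 to vitamin A2, rose 1.59-fold.

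Of 31 melanin genes tested, 12 rose and 0 fell, with a median deposited log2 fold change of 0.23. The enzyme genes of the pathway were higher, dct, of dopachrome tautomerase, from 796 to 1812 (2.28-fold, 95% interval 1.96 to 2.65), tyrp1b 1.84-fold, tyrp1a 1.74-fold and tyr, of the rate-limiting tyrosinase, 1.68-fold from 728 to 1222. The fibril genes pmela and pmelb rose 1.86-fold and 1.85-fold, pmela from 2326 to 4324. Of melanosome transporters, oca2 rose 1.74-fold, slc45a2 1.46-fold and slc24a5 1.45-fold. Melanin is made by melanocytes of the skin and by the pigment epithelium, and these genes mark both. Genes of the other pigment cells, iridophores and xanthophores, did not share a direction: of 44 tested 3 rose and 3 fell, and 2 of the risers, oca2 and slc2a15b, stand in the melanin list too.

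The photoreceptor list differed in its counts from the visual cycle list, which also holds genes of cells other than the pigment epithelium. Of 52 photoreceptor genes tested, 2 rose and 8 fell, and the median deposited log2 fold change was -0.03. pde6ga, an inhibitory subunit of the phosphodiesterase of phototransduction, had the largest fall, from 98.8 to 30.7, 3.22-fold (95% interval 2.36 to 4.37). The cone opsin genes opn1mw2, opn1lw2, opn1sw2 and opn1mw1 fell 1.72-fold, 1.30-fold, 1.30-fold and 1.27-fold, and opn1lw2 went from 13616 to 10484. The green opsin genes are near-identical tandem copies, so reads may have been divided between them. nr2e3, a photoreceptor transcription factor gene, fell 1.56-fold, guca1c, which regulates guanylate cyclase, 1.36-fold, and prph2b, a structural gene of the outer segment, 1.16-fold. The rod opsin gene rho, with means of 26744 and 27757, and the ultraviolet opsin gene opn1sw1, with 29606 and 27933, did not pass. The listed genes that rose were the cone arrestins, which end the light response, arr3a 1.34-fold from 9535 to 12753 and arr3b 1.27-fold. pde6h, an inhibitory phosphodiesterase subunit gene outside the list that was named after its values were seen, rose 1.43-fold from 288 to 411.

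**Figure D4:**
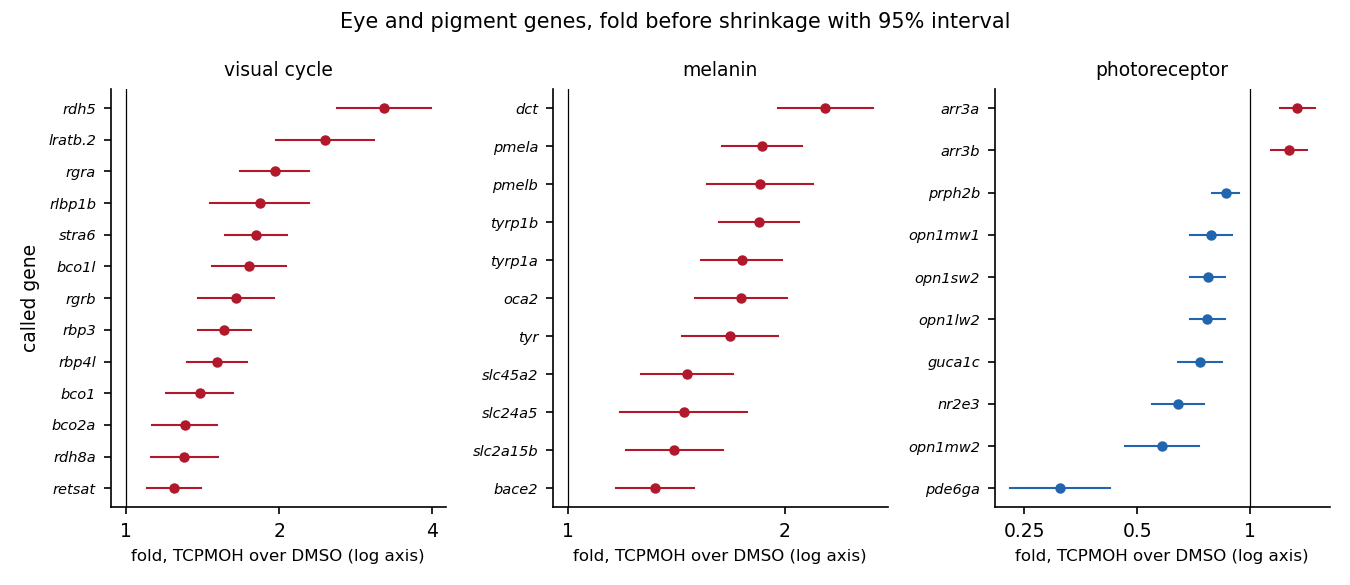
Points are folds of TCPMOH over DMSO before shrinkage with 95% normal intervals (log axes), for called genes of the visual cycle, melanin and photoreceptor lists whose fold could be recovered. Every visual cycle and melanin gene shown lies above 1, up to rdh5 at 3.21, and the photoreceptor genes lie below 1 except arr3a and arr3b.

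Of 70 genes of DNA replication tested, 10 fell and 1 rose, and 6 of the 70 had a fold change above 0, with a median deposited log2 of -0.16. Of the helicase that licenses origins, mcm2 fell 1.47-fold from 1818 to 1234, mcm3 1.41-fold, mcm6 1.37-fold, mcm5 1.35-fold and mcm4 1.33-fold, whereas mcm7 had means of 1699.6 and 1647 and did not pass. orc1, of the origin recognition complex, fell 1.53-fold, and e2f1, a factor that drives replication genes, 1.52-fold. cdca7a fell 1.44-fold, and uhrf1 and dnmt1, which maintain DNA methylation, fell 1.41-fold and 1.28-fold. pcna, the sliding clamp gene, had means of 3519 and 3452. None of 77 genes tested in the list of mitosis and cyclins was called, beside 1.0 higher and 3.0 lower with an unadjusted p below 0.05.

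Of 57 chaperone genes tested, 10 rose, 1, fkbp5, fell and 46 did not pass, and some of them differed between the compounds. serpinh1b, of the collagen chaperone Hsp47, went from 6379 to 9387, 1.47-fold higher (95% interval 1.37 to 1.58). The cytosolic chaperone genes hsp90aa1.2 and hsp90aa1.1 rose 1.37-fold and 1.30-fold, hsp70.3 rose 1.52-fold from 325 to 495, and hspd1, of the mitochondrial chaperonin, 1.27-fold. The hsp90aa1 pair are adjacent copies and the hsp70 genes near-identical, so their reads may be divided. The constitutive genes hsp90ab1 and hspa8, at 71408 and 79386 and at 85521 and 90753, did not pass. TCPM, at the same dose and hours and against the same DMSO libraries, gave serpinh1b a deposited log2 fold change of -0.29 where TCPMOH gave 0.54, both from the authors' deposited tables. The difference, TCPMOH minus TCPM, was 0.83 (95% interval 0.74 to 0.92) with an adjusted p of 1.54e-65 by the normal test over 22732 genes, of which 0.453% passed. hsp70.3 differed by 0.73 (adjusted p = 1.49e-08), hsp90aa1.2 by 0.52 (adjusted p = 1.33e-09) and hsp90aa1.1 by 0.34 (adjusted p = 0.000149), all by that normal test. For fkbp4, another co-chaperone gene, the difference of 0.18 had an interval of 0.05 to 0.30 and did not pass.

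**Figure D5:**
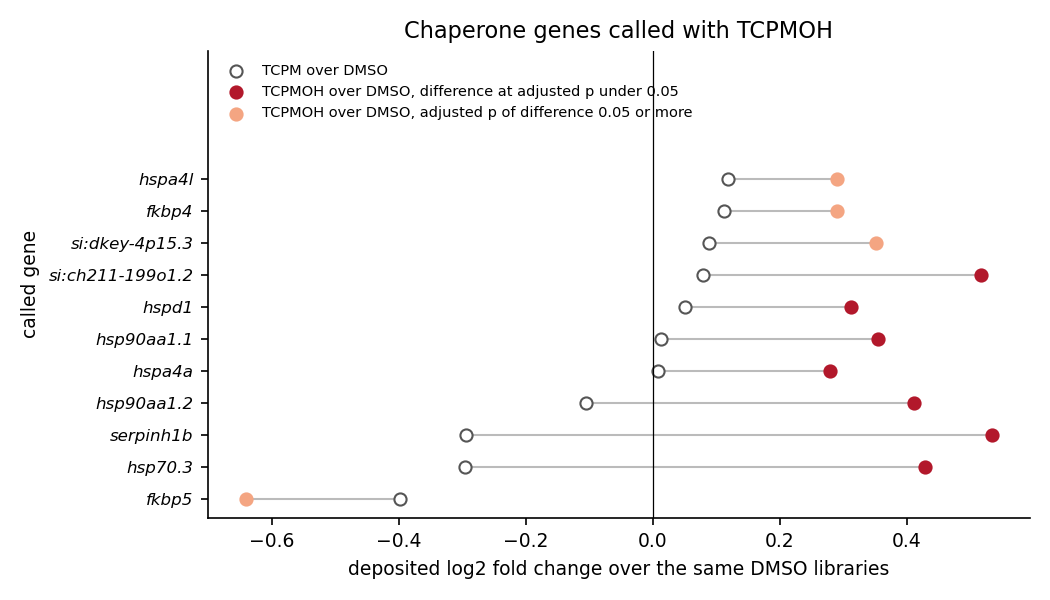
For the 11 called genes of the chaperone list, filled points give the deposited log2 fold change of TCPMOH and open points that of TCPM, both over the same DMSO libraries, dark red where the difference passed an adjusted p under 0.05. serpinh1b, hsp70.3 and hsp90aa1.2 lie above 0 with TCPMOH and below 0 with TCPM.

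Of the 547 called genes, 237 were also called with TCPM in the same direction. Both sets of calls rest on the same DMSO libraries, which favours a shared direction. The share of all genes tested that was called with TCPM was not counted, so the overlap has no background beside it. Of the 103 genes whose difference passed, 71 were among the 547 called. In each of these the difference had the sign of the TCPMOH fold change, a direction that choosing genes called with TCPMOH favours. The prior of the TCPM table was narrower (SD 0.216 against 0.248) and pulled its fold changes harder toward 0, which favours that direction too. Before shrinkage the difference passed for 69 of the 547. Of the other 32, not called with TCPMOH, 22 lay farther from DMSO with TCPM, cyp1a among them. Among repair and clock genes, cry5 differed by 0.54 (95% interval 0.39 to 0.69, adjusted p = 1.94e-09, normal test), xpc by 0.45, cry1bb by 0.53, nr1d2a by -0.40 and nr1d1 by -0.34. Of the early genes, nr4a1 differed by -0.55 (95% interval -0.68 to -0.41, adjusted p = 5.36e-12, normal test), fosb by -0.66 and fosaa by -0.72, the last with a deposited log2 of 0.18 with TCPM and -0.54 with TCPMOH in the authors' deposited tables. For others the difference did not pass: per2 at 0.28 (95% interval 0.12 to 0.44), fosab at -0.20 (-0.41 to 0.01), npas4a at -0.36 (-0.56 to -0.15), egr1 at -0.06 (-0.22 to 0.09), rdh5 at 0.19 (-0.01 to 0.40) and dct at 0.16 (-0.01 to 0.34). One pair of compounds was compared, on the deposited log2 scale. With the covariance from the shared DMSO libraries set to 0, the difference passed for 10 of the 547 genes, among them serpinh1b, hsp70.3, hsp90aa1.2, cry5, xpc, nr4a1, fosb and fosaa, while hsp90aa1.1, cry1bb, nr1d2a and nr1d1 no longer passed.

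Genes that handle foreign compounds rose in part. Of 25 ABC efflux transporter genes tested 5 rose and 0 fell. abcg2a, of the breast cancer resistance protein family, went from 901 to 2109, 2.34-fold higher (95% interval 2.02 to 2.72), and its relative abcg2b rose 2.02-fold from 123 to 249. abcg8, a sterol transporter gene, and the organic anion transporter genes abcc1 and abcc4 rose 1.40-fold, 1.33-fold and 1.31-fold. Of 100 phase I and II enzyme genes and regulators 9 rose and 0 fell, against 1.54% and 1.00% of all genes tested. The cytochrome P450 genes among them were cyp2x8 (1.84-fold), cyp2k18 (1.56-fold, from 540.3 to 844), cyp3a65 (1.41-fold, from 8897 to 12522) and cyp2y3 (1.31-fold). nr1i2, the pregnane X receptor gene, which in mammals senses drugs and induces such enzymes, rose 1.32-fold, the glutathione transferase gene gsto2 1.45-fold and the epoxide hydrolase gene ephx1 1.30-fold. ugt5a4, a glucuronosyltransferase gene, rose by 0.62 on the deposited log2 scale of the authors' deposited table.

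None of 16 targets and feedback genes of the aryl hydrocarbon receptor was called by DESeq2 with TCPMOH, beside 3 higher and 1 lower with an unadjusted p below 0.05. cyp1a, the usual readout of that receptor, had means of 2744 and 3358, 1.22-fold, and the authors' deposited table lists an adjusted p of 0.252. With TCPM its deposited log2 fold change was 0.97 (adjusted p = 1.88e-31) against 0.24 with TCPMOH, from the authors' deposited tables. The difference, TCPMOH minus TCPM, was -0.73 (95% interval -0.91 to -0.56, adjusted p = 8.39e-13, normal test), and it passed with covariance 0 as well. cyp1b1 and cyp1c1 had means of 494 and 567 and of 1184 and 1309. In the antioxidant and glutathione list 3 of 48 rose, or 6.25% against 1.54% of all genes tested. They were keap1a, the sensor that restrains Nrf2, at 1.49-fold, the heme oxygenase gene hmox2a at 1.56-fold and prdx1 at 1.26-fold. The ferritin gene fth1a had means of 10298 and 11613 and did not pass.

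In the list of erythroid and heme genes 1 of 39 tested rose, or 2.56% against 1.54% of all genes tested, and 0 fell. It was fech, of ferrochelatase, which makes heme, at 1.81-fold. Single called genes outside that list whose products bind or move heme or porphyrins or act on its breakdown products were picked after their values were seen, and no count of such genes was made. hebp2 and soul5, of the SOUL family of heme-binding proteins, rose 2.10-fold from 600.2 to 1262 and 1.73-fold. blvra, of biliverdin reductase, rose 1.94-fold, abcb6a, a porphyrin transporter gene in mammals, 1.74-fold, and tspo, of an outer mitochondrial membrane protein that binds porphyrins, 1.65-fold. hpxa, of hemopexin, rose by 0.60 on the deposited log2 scale of the authors' deposited table. The hemoglobin gene hbae3, with means of 4941 and 5295, did not pass.

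Lipid genes moved in small numbers and both ways. elovl7b, a fatty acid elongase gene, fell 2.51-fold from 277 to 110.0 (95% interval 1.92 to 3.28), and elovl6l fell 1.77-fold. These were the 2 called genes of 34 tested in their list. In the list of cholesterol synthesis and uptake 3 of 38 rose, msmo1 1.73-fold from 254 to 438, ebp 1.45-fold and dhcr7 1.30-fold, all of late steps of sterol synthesis, and srebf1, a regulator gene, had means of 1719 and 1886. Intestinal epithelium genes rose in 5 of 65 cases, or 7.69% against 1.54% of all genes tested, with 0 falling. Centred on the ribosomal protein genes, 9 of them rose, as did 5 of the cholesterol list. Those called in the deposited table include slc5a1, of the glucose cotransporter (1.45-fold), apoa4b.2 (1.41-fold), the chitinase gene chia.2 (1.41-fold, from 15406 to 21760.2) and the fatty acid carrier gene fabp2 (1.35-fold). slc13a1, a sulfate transporter gene of the kidney tubule, rose 1.90-fold.

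Of ionocyte genes, which exchange ions and ammonia between larva and water, 3 of 63 fell and 1 rose. These shares were 4.76% against 1.00% of all genes tested for falls, and 1.59% against 1.54% for rises. rhcga, an ammonia transporter gene, went from 2545 to 1327, 1.92-fold lower (95% interval 1.62 to 2.27). The potassium channel genes kcnj1a.6 and kcnj1a.5 fell 1.76-fold and 1.59-fold, and cyp24a1, whose enzyme breaks down vitamin D, rose by 0.51 on the deposited log2 scale of the authors' deposited table. In muscle, tcap, of the titin cap protein, fell 1.55-fold and the myogenic factor gene myod1 1.25-fold, which makes 2 of 87 genes tested, or 2.30%, against 1.00% of all genes tested. The call of myod1 was lost when fold changes were centred on the ribosomal protein genes. In the list of skin and epithelial barrier genes 2 of 69 tested rose (2.90%) and 1 fell (1.45%), against 1.54% and 1.00% of all genes tested. cldnb, a claudin gene of epithelial junctions, fell 1.49-fold from 1184 to 792, while the keratin genes krt1-19d and krt92 rose 1.47-fold and 1.29-fold. foxo1a, a transcription factor gene under insulin control, rose 1.45-fold. In the list of insulin and insulin-like growth factor signalling 1 of 48 genes tested rose (2.08%) and 2 fell (4.17%).

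Many tissues and processes showed no called gene. Over all genes tested 2.55% were called, so a short list may hold 0 at that share. Lists with 0 called by DESeq2 were those of the aryl hydrocarbon receptor, blood vessel, cartilage and bone, the chaperonin TRiC, cytosolic ribosomal proteins, endocrine pancreas, fatty acid oxidation, glia and myelin, hair cells, lens, leukocytes, mitochondrially encoded transcripts, mitosis, neuropeptides and the proteasome. At an unadjusted p under 0.05 these 15 lists held 25 higher and 15 lower of 616 genes tested, counted per list. Over all genes tested, 2080 of 21491 had an unadjusted p under 0.05, a count that includes the 547 called genes. Picking lists for holding 0 called genes lowers their own count. These counts therefore cannot show whether the 15 lists moved less than other genes. The 15 lists were not alike. Fatty acid oxidation held 9 higher and 1 lower of 52 at that unadjusted p. Fold changes lay above 0 for 57 of 63 lens genes, but for 21 of 81 cytosolic ribosomal protein genes. The shifts were small, with median deposited log2 fold changes of 0.07 and -0.03, against -0.002 over all genes tested. The share of all genes tested with a fold change above 0 was not counted. Some members with high base means differed little between the groups. Among them were matn1 of cartilage at 10808 and 10917, acta2 of vessel walls at 3956 and 4147 and psmd1 of the proteasome at 2205 and 2196. The ribosomal protein gene rps2 had 56214 and 53356. Others moved more without passing, such as ucp1 of the fatty acid oxidation list, with means of 9093 and 11772, 1.29-fold. The insulin gene ins, named after its value was seen, had means of 247 and 261.

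A few called genes are neighbours in the genome. By gene order in the RefSeq assembly GRCz12tu, used here for order alone, 32 of 527 placed called genes, or 6.07%, had a called gene next to them among the genes tested, against 5.25% of all 19685 placed genes. These made 17 pairs, of which 14 moved the same way, a count for which no share over all neighbouring genes was worked out. Some are tandem copies, such as bco1l with bco1, ptgdsb.2 with ptgdsb.1 and the kcnj1a genes. Others are not copies by name, though sequences were not compared. Among these, eevs, which starts the synthesis of the sunscreen compound gadusol in zebrafish, rose 2.01-fold from 872 to 1748 beside zgc:113054, which rose 1.92-fold. cry5 lies beside dcps, a messenger RNA decapping gene, which rose 1.56-fold. dhrs13a.2 fell beside its copy dhrs13a.1, which rose 1.43-fold. The sources used here do not state whether the authors' counting used strand, so overlapping neighbours cannot be told apart.

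The share of genes called and their precision differed by level. Of genes tested with a base mean of 10 to 30, 0.168% were called in the authors' deposited table, 1.11% from 30 to 100, 2.05% from 100 to 300, 3.23% from 300 to 1000, 3.89% from 1000 to 3000, 5.87% from 3000 to 10000 and 2.35%, or 5 of 213, from 10000 up. The median standard error of the log2 fold change before shrinkage was 0.14 from 100 to 300, 0.08 from 1000 to 3000 and 0.10 from 10000 up, so neither measure ran one way over all classes. A gene of median precision in the first of these classes thus had a 95% interval of 1.22-fold either way, and one in the class from 1000 to 3000 of 1.12-fold. At the lower limit of the genes described, si:dkey-148a17.6 with a base mean of 10.002 was inside and clca1 with 9.999 outside, with deposited log2 fold changes of 0.06 for both in the authors' deposited table.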

How the data were processed

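Per the labels, pools of whole larvae underwent stranded mRNA sequencing with paired reads of 100 nt, for which 25 M reads are stated. The submitters' processing notes name FastQC, cutadapt, STAR, featureCounts and DESeq2 without versions, and the file headers name gene models V4.3.2. With the build not given in the sources used here, coordinates are not reported.

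The base mean is a signal that the authors deposited, the mean over libraries of read counts over size factors. From their DESeq2 fit the authors deposited the log2 fold change, the standard error, the Wald score, the p-value and its adjusted form. With 0 columns of per-sample values, no count model was fitted here. P-values and intervals measure the spread between pools, treated as independent. With 3 experimental replicates stated and 4 libraries per group in the fit, some pools of a group shared a replicate. P-values may therefore be too small and intervals too narrow. The sources do not say which pools share parents or days.

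The deposited standard errors showed a normal prior of SD 0.248 (0.216 in the TCPM table), which was undone algebraically. Of the 2 roots this gives, a fold was printed only where the DMSO means implied by both tables agreed within 0.02 in log2 and better than with the other root. As a check on direction, the implied DMSO means of 10852 genes had a log2 gap with an SD of 0.0129 with turned signs and 0.0928 as deposited. Compounds were compared by the difference of log2 fold changes, its covariance from the shared DMSO libraries set to 0.5 times the product of the standard errors, with a two-sided normal test and Benjamini-Hochberg adjustment (Python 3.11.15, pandas 2.3.3, scipy 1.17.1).

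Named genes were the 15 largest rises and falls and, per list, up to 4 called genes with the largest fold changes and 2 with the highest base means that were not called. Further list members, given to complete a family, were named after their values were seen. Genes, lists and tests were chosen with earlier results of these data known. Of 3106 listed names 3020 matched, 110 of them through RefSeq names.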

Additional observations from a re-analysis of the deposited data

How the results depend on the processing

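Of 547 genes called, with 332 higher and 215 lower, an adjusted p under 0.01 gave 363, of which 223 were higher and 140 lower. A test against a minimum absolute log2 fold change of 0.2 gave 143, 96 higher and 47 lower. Adjustment over all genes at base means from 10 up gave 537 calls, no filter on the mean 492, only base means of at least 100 gave 533, and centring on ribosomal protein genes, which moved fold changes by 0.03 in log2, gave 631, of which 502 were among the 547. Centring on genes with base means of at least 100 left the 547. The test before shrinkage gives the same calls by construction. On the deposited scale 21 of the 516 genes with a recovered fold passed 2-fold and 102 passed 1.5-fold, against 48 and 187 before shrinkage, since the prior pulls fold changes toward 0. Of 246 named genes, 126 of them called, 23 lost their call at an adjusted p under 0.01 and 6 with ribosomal centring, an alternative for named genes and lists that was chosen after seeing the data, while 2 gained one, and none changed direction under these. Of 63 counts of called genes by list and direction, 17 moved by over 1.5 times at an adjusted p under 0.01 and 11 with ribosomal centring. The difference between compounds passed for 34 of the 246, for 7 with covariance 0 and for 32 before shrinkage. The 7 include cyp1a but not hsp90aa1.2 and fosaa, which were named to complete a family.

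No paired analysis was possible because the deposited tables hold no column per library. For the same reason leaving out each replicate in turn and another normalization were not run, and promoter motifs were not searched. The share called was lowest at low base means, and from 10000 up it was 2.35%.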
